A study of Homo sapiens with 6 samples.

Results

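The Notch pathway was examined in 5637 bladder carcinoma cells after knockdown of YKT6, through 10 genes listed by name: the ligand genes JAG1, JAG2 and DLL1, the receptor genes NOTCH1, NOTCH2 and NOTCH3, the target genes HES1, HEY1 and NRARP, and the modulator gene LFNG. All 10 have a row among the 36887 genes of the count table, and all 10 passed the filter on low counts that left 21036 genes for testing. The genes were picked by name for their place in the pathway, without a threshold on any measured value, but with earlier results of these data known. RNA was sequenced from 3 samples transfected with siRNA against YKT6 (siYKT6) and 3 transfected with the control siRNA (siNC), 48 h after transfection. 5637 is an established human line, labelled WT in the siNC samples and YKT6 knockdown in the siYKT6 samples, and it stands for a single cell line grown without other cell types. The labels number the siYKT6 samples 1 to 3 without saying whether they received the same siRNA.

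Notch signaling passes between touching cells. A Jagged or Delta-like ligand on the surface of a cell pulls on a Notch receptor of its neighbor, the receptor is cut by ADAM proteases and then by γ-secretase, and the freed intracellular domain enters the nucleus and joins the DNA-binding protein RBPJ to switch on genes such as HES1, HEY1 and NRARP. In stratified epithelia such as the urothelium the pathway is known for its part in the balance between basal and differentiated cells. YKT6 is a SNARE protein of membrane traffic, and the study sequenced RNA to look for how it acts in bladder cancer cells.

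The libraries held 57546297 to 64429709 counts in siYKT6 cells and 45205238 to 64982015 in siNC cells. YKT6 was at 17.7, 19.4 and 17.3 CPM (counts scaled to library size with TMM normalization) in siYKT6 cells and at 64.5, 65.3 and 68.2 CPM in siNC cells, so that 27.5% of the siNC level was left. Each siYKT6 library lay below each siNC library (p = 0.1 by a two-sided exact permutation test, which with 3 libraries a group can give no smaller value). The 9 epithelial markers that were checked all passed the filter, with summed levels of 2811 to 2984 CPM in siYKT6 cells and 4543 to 4636 CPM in siNC cells. Of these markers 5 were lower in edgeR's test (KRT5, KRT17, KRT19, TP63 and CDH1) and 1 was higher (EPCAM). KRT7, KRT18 and GATA3 did not pass it. The 5 leukocyte markers summed to at most 0.398 CPM in any siYKT6 library and 0.374 CPM in any siNC library. The 4 endothelial markers summed to 1.56 to 1.60 CPM in siYKT6 cells and 0.861 to 1.39 CPM in siNC cells. The 5 fibroblast markers summed to 31.0 to 33.0 CPM in siYKT6 cells and 26.8 to 28.7 CPM in siNC cells, most of it COL1A1. COL1A1 was higher in edgeR's test, as was the endothelial marker VWF, which averaged 0.921 CPM in siYKT6 cells and 0.442 CPM in siNC cells. The part of these shifts in the Notch values was not tested.

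In siYKT6 cells all 3 ligand genes, the receptor gene NOTCH1 and the 3 target genes were lower than in siNC cells, whereas NOTCH2, NOTCH3 and LFNG did not pass the test. Of the 10 genes, 7 were called lower and 0 higher. A call means a Benjamini-Hochberg adjusted p under 0.05, over all genes tested, from the quasi-likelihood test of edgeR, and SE is the standard error of the log2 fold change. Across all tested genes, 16.3% were called lower and 14.6% higher. Without adjustment, 7 of these genes had p under 0.05 with a lower level and 2 with a higher level, and both DESeq2 and limma-voom gave 7 lower and 0 higher calls. The median log2 fold change of siYKT6 over siNC was -0.35 over the 10 genes and 0.00 over all tested genes. The same 7 genes had every siYKT6 library below every siNC library, as did 21.5% of all tested genes, and 20.3% of all tested genes had every siYKT6 library above. Whether each replicate was its own culture is not stated, and the p values cover the spread between these samples alone. In bulk RNA, fewer cells that express a gene and less of its RNA per cell cannot be told apart.

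**Figure D1:**
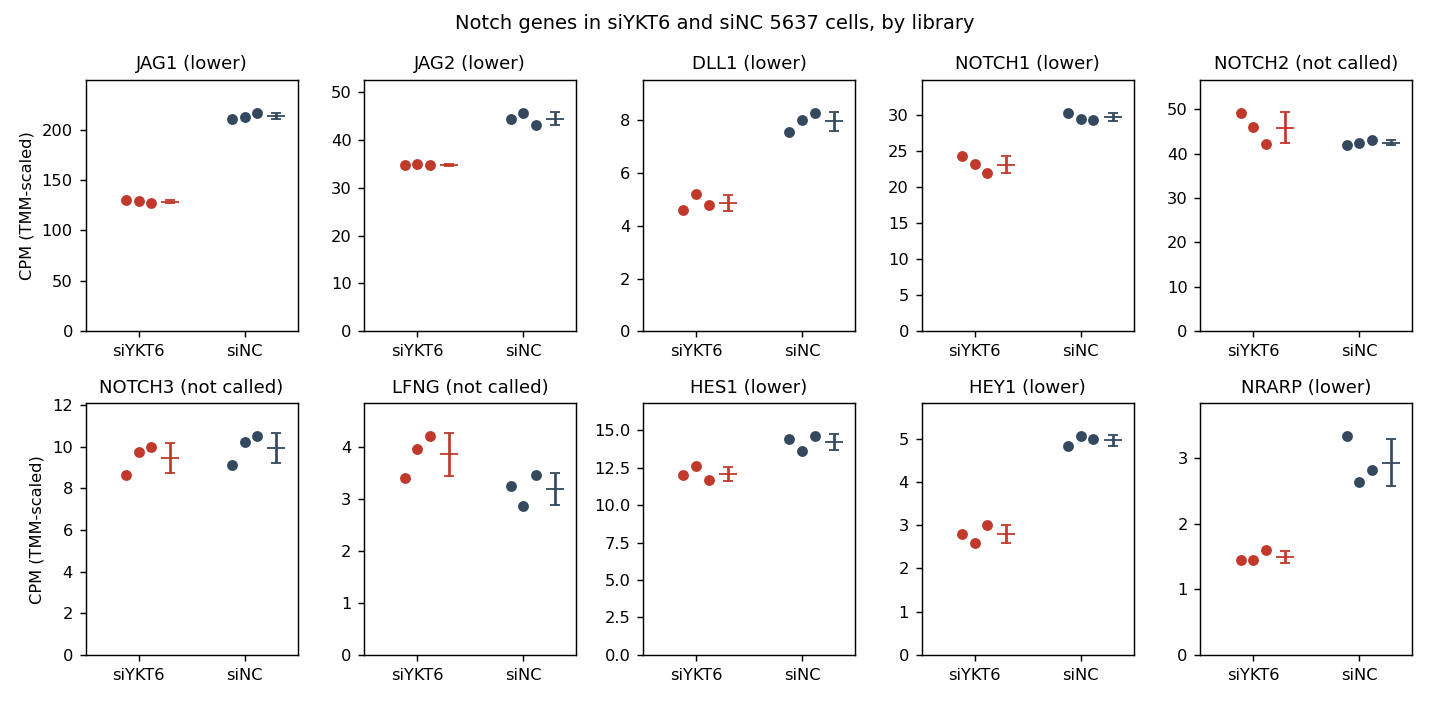
CPM (TMM-scaled, linear axes from 0) of each of the 10 Notch genes in the 3 siYKT6 libraries (left of each panel) and the 3 siNC libraries (right), with 1 point per library and the mean ± SD beside them. The groups are apart in the 7 panels marked lower and overlap for NOTCH2, NOTCH3 and LFNG.

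Among the ligands, JAG1 had by far the highest level. JAG1 (chromosome 20 of GRCh38, 10637684 to 10674107, minus strand), the Jagged ligand whose loss causes Alagille syndrome, was at 129.8, 129 and 127 CPM in siYKT6 cells and at 211, 213 and 217 CPM in siNC cells. Within each group the libraries lay close together, and the groups were far apart. The level in siYKT6 cells was 60.0% of that in siNC cells, a log2 fold change of -0.74 (SE 0.0325, edgeR adjusted p = 2.8e-13). Of all tested genes, 2.89% had a log2 fold change as low or lower.

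JAG2 (chromosome 14, 105140981 to 105168824, minus strand), the second Jagged ligand, was at 34.7, 35.0 and 34.7 CPM in siYKT6 cells and at 44.4, 45.7 and 43.0 CPM in siNC cells. Its groups did not overlap either, but its fall was smaller (log2 fold change -0.35, SE 0.0414, edgeR adjusted p = 1.0e-06). The 95% interval of JAG2, -0.44 to -0.26, and that of JAG1, -0.80 to -0.67, do not meet. DLL1 (chromosome 6, 170282206 to 170306565, minus strand), a Delta-like ligand, was much less abundant, at 4.61, 5.21 and 4.80 CPM in siYKT6 cells and at 7.58, 8.03 and 8.30 CPM in siNC cells. All of its siYKT6 libraries were below all of its siNC libraries. Its log2 fold change of -0.71 (SE 0.0852, edgeR adjusted p = 1.1e-06) lay close to that of JAG1, with a wider interval of -0.89 to -0.53 from 277 to 533 counts per library.

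The receptors did not move together. NOTCH1 (chromosome 9, 136494444 to 136545862, minus strand), the receptor that drives differentiation in many squamous epithelia, was at 24.3, 23.2 and 22.0 CPM in siYKT6 cells and at 30.4, 29.5 and 29.4 CPM in siNC cells. The highest siYKT6 library stayed below the lowest siNC library. Its log2 fold change was -0.36 (SE 0.0489, edgeR adjusted p = 6.1e-06), close to that of JAG2.

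NOTCH2 (chromosome 1, 119911553 to 120069626, minus strand) was at 49.3, 46.1 and 42.3 CPM in siYKT6 cells and at 42.0, 42.4 and 43.1 CPM in siNC cells. The siYKT6 libraries were spread more widely than the siNC libraries, and the lowest of them lay among the siNC values. The log2 fold change was 0.11 (95% interval 0.01 to 0.21, edgeR adjusted p = 0.086). Without siYKT6 replicate 3 it was 0.17 and passed the threshold (adjusted p = 0.0066 from edgeR, in a range of 0.0066 to 0.45 over the 15 alternatives for this gene). NOTCH2 shares near-identical sequence with its NOTCH2NL paralogs, so reads could be split between them. NOTCH2NL itself was at 12.7 ± 1.24 CPM in siYKT6 cells and at 11.7 ± 0.547 CPM in siNC cells (SD, n = 3 each) and was not called. NOTCH3 (chromosome 19, 15159038 to 15200981, minus strand) was at 8.65, 9.72 and 10.0 CPM in siYKT6 cells and at 9.10, 10.2 and 10.5 CPM in siNC cells. These groups overlapped almost wholly, and the interval of the log2 fold change was -0.24 to 0.08 (edgeR adjusted p = 0.49).

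LFNG (chromosome 7, 2512529 to 2529177, plus strand) encodes Lunatic fringe, a Golgi enzyme that extends O-fucose on the receptors and shifts their preference toward Delta-like ligands. It was at 3.41, 3.97 and 4.21 CPM in siYKT6 cells and at 3.26, 2.86 and 3.47 CPM in siNC cells, so that siYKT6 replicate 1 lay within the range of the siNC libraries. Its log2 fold change was 0.26 (95% interval 0.02 to 0.51, edgeR adjusted p = 0.10). Without siYKT6 replicate 1 it was 0.35 (adjusted p = 0.048 from edgeR, in a range of 0.048 to 0.31 over its 14 alternatives).

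The 3 target genes were all lower, and to different degrees. HES1 and HEY1 encode basic helix-loop-helix repressors, and NRARP encodes a small ankyrin repeat protein that binds the Notch intracellular domain and dampens the signal. HES1 (chromosome 3, plus strand, 194136145 to 194138732) was at 12.0, 12.6 and 11.7 CPM in siYKT6 cells and at 14.4, 13.6 and 14.6 CPM in siNC cells. The gap between its groups was narrow but present. Its log2 fold change of -0.23 (SE 0.0615, edgeR adjusted p = 0.0061) was the smallest fall of the 7 called genes. NRARP (chromosome 9, 137300482 to 137302251, minus strand) was at 1.44, 1.44 and 1.59 CPM in siYKT6 cells and at 3.33, 2.64 and 2.82 CPM in siNC cells. The siYKT6 libraries lay close together, and siNC replicate 1 was the highest of the siNC libraries. The log2 fold change of -0.97 (SE 0.145, 95% interval -1.27 to -0.67, edgeR adjusted p = 2.1e-05) was the largest in size among the 10 genes, and it rests on 91 to 181 counts per library.

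The promoters of HES1 and NRARP are shown because RBPJ, through which the pathway acts, prefers the letters GTGGGAA. The sequences are the 250 bases before the RefSeq start in GRCh38.p14, written 5′ to 3′ on the strand of the gene, with any match to GTGGGAA or to its shorter core TGGGAA, on either strand, in capitals. The core lies within the longer motif. HES1 is at chr3:194135898-194136147 (plus strand) and NRARP at chr9:137302272-137302521 (minus strand).
HES1: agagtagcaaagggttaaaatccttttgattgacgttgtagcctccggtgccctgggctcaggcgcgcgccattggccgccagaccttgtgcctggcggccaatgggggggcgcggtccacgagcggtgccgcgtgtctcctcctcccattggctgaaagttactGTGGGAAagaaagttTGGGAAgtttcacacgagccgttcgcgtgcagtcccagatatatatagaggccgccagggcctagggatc
NRARP: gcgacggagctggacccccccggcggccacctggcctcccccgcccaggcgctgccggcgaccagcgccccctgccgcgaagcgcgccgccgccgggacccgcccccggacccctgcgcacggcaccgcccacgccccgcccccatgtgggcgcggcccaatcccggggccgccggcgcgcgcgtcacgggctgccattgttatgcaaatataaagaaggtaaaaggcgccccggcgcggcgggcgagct
The HES1 promoter held GTGGGAA 85 bases before the start, and a second match to the core began 70 bases before the start. The NRARP window held neither. Only these exact letters within the windows were searched, so variant sites and sites farther away were not looked for. Of 35116 RefSeq promoter windows of 300 bases, 6.25% held GTGGGAA and 24.0% held TGGGAA on either strand. Promoters were found for 8 of the 10 genes, and none was found for HEY1 and DLL1, which were therefore not searched. Among these 8 genes, HES1 had the longer motif and HES1 and LFNG had the core. The percentages count windows, whereas the 8 genes are counted by gene, and LFNG held the core in each of its windows.

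HEY1 was at 2.80, 2.58 and 3.01 CPM in siYKT6 cells and at 4.83, 5.06 and 5.00 CPM in siNC cells. The groups were well separated, as for NRARP. The log2 fold change was -0.83 (SE 0.106, 95% interval -1.05 to -0.61, edgeR adjusted p = 2.7e-06), which leaves 56.2% of the siNC level.

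**Figure D2:**
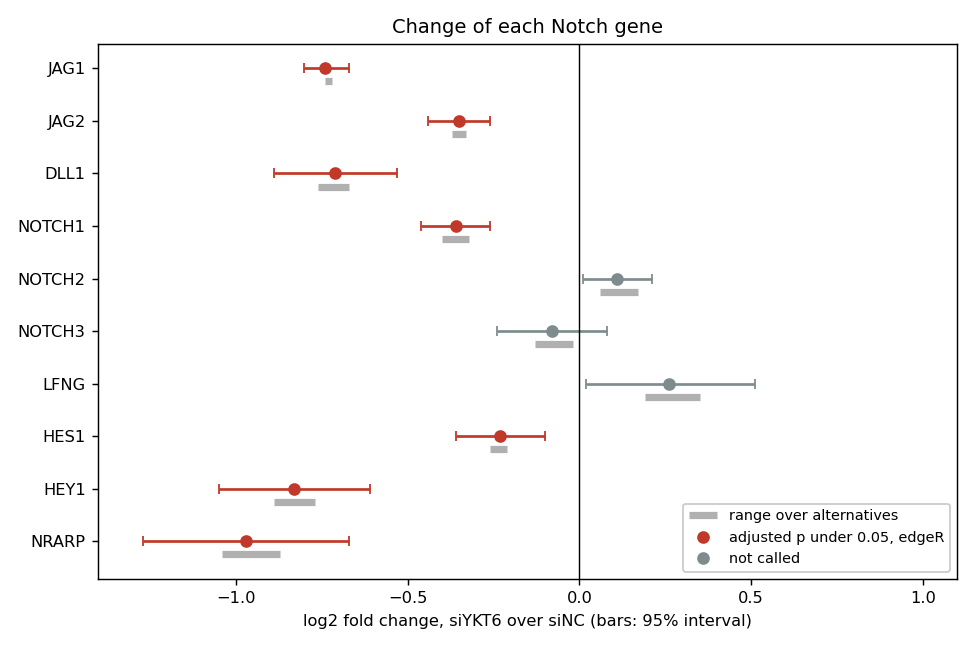
Log2 fold change of siYKT6 over siNC for each of the 10 Notch genes (points, with bars for the 95% interval) and, in grey, the range of the value over the alternative settings. NRARP (-0.97), HEY1 (-0.83), JAG1 (-0.74) and DLL1 (-0.71) fell most, JAG2, NOTCH1 and HES1 fell less, and the points of NOTCH2 and LFNG lie above 0 without passing the test.

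To compare levels between genes, CPM were divided by the exon length of each gene in the count table (CPM per kilobase). JAG1 led in each library, at 15.0 ± 0.184 CPM per kilobase in siYKT6 cells and 25.1 ± 0.392 in siNC cells (SD, n = 3 each). In siYKT6 cells the order after JAG1 was HES1, JAG2, NOTCH2, NOTCH1, DLL1, LFNG, NOTCH3, HEY1 and NRARP. In that order LFNG and NOTCH3, NOTCH3 and HEY1, and HEY1 and NRARP overlapped in their libraries. In siNC cells the order after JAG1 was JAG2, HES1, NOTCH1, NOTCH2, DLL1, NRARP, HEY1, NOTCH3 and LFNG, and there JAG2 and HES1, NOTCH2 and DLL1, NRARP and HEY1, and NOTCH3 and LFNG overlapped. NRARP and HEY1 thus stood above NOTCH3 and LFNG in siNC cells and below them in siYKT6 cells.

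The summed level of the 5 canonical ligand genes, with DLL3 and DLL4 included, was 22.1, 22.3 and 21.8 CPM per kilobase in siYKT6 cells and 34.1, 34.7 and 34.8 in siNC cells. That of the 4 receptor genes, with NOTCH4 included, was 6.34, 6.16 and 5.83 CPM per kilobase in siYKT6 cells and 6.57, 6.61 and 6.68 in siNC cells. The siYKT6 sum was therefore 0.639 of the siNC sum for the ligands and 0.923 for the receptors. The ratio of summed ligands to summed receptors was 3.49, 3.61 and 3.74 in siYKT6 cells and 5.18, 5.24 and 5.21 in siNC cells, with no overlap. JAG1 made up 68.2% ± 0.469 of the ligand sum in siYKT6 cells and 72.6% ± 0.603 in siNC cells, and JAG2 made up 24.7% ± 0.188 in siYKT6 cells and 20.1% ± 0.703 in siNC cells (SD, n = 3 each). Among the receptors, NOTCH2 took 44.7% ± 1.56 in siYKT6 cells and 38.2% ± 0.169 in siNC cells, and NOTCH1 took 38.3% ± 0.394 in siYKT6 cells and 45.5% ± 1.20 in siNC cells (SD, n = 3 each). NOTCH2 was the most abundant receptor transcript per kilobase in each siYKT6 library, and NOTCH1 was in each siNC library. These shares are descriptions, without a test, and the exon lengths count the exons of all annotated transcripts together.

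**Figure D3:**
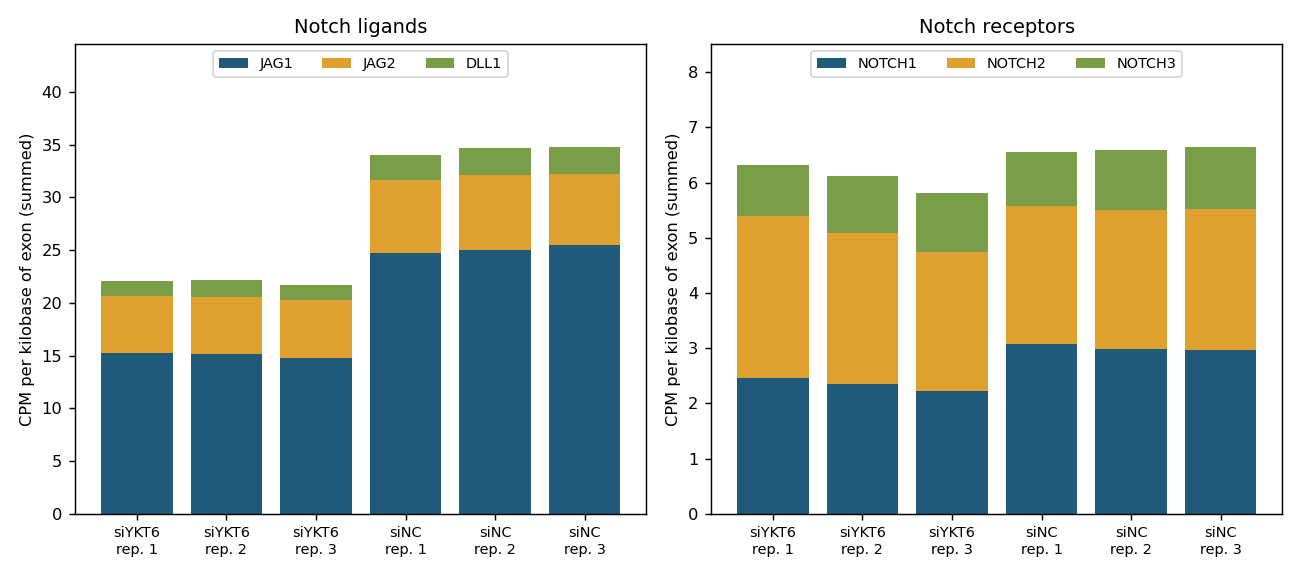
Levels per exon length (CPM per kilobase, stacked, axes from 0) of the ligand genes (left) and receptor genes (right) in each library, siYKT6 first. The ligand stacks reach 21.8 to 22.3 in siYKT6 cells and 34.1 to 34.8 in siNC cells, while the receptor stacks reach 5.83 to 6.34 in siYKT6 cells and 6.57 to 6.68 in siNC cells, with less NOTCH1 in each siYKT6 library and overlapping levels of NOTCH2 (DLL3, DLL4 and NOTCH4 are in the sums but too low to draw).

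Of 73 further pathway genes in the count table, taken from lists by role, 67 were tested, and 11 were higher, 17 lower and 39 not called. Their median log2 fold change was -0.02. The share called lower was 25.4% and the share called higher 16.4%, to be read against the 16.3% and 14.6% of all tested genes. Those background shares depend on the filter and were larger among better expressed genes. Of 15109 genes with at least 1 CPM in every sample, 3264 were called lower and 3032 higher. Among the other ligands and receptors 1 of 4 tested genes was higher and 0 were lower, and the counts were the same at an unadjusted p under 0.05, with DESeq2 and with limma-voom. The gene that was higher was DNER, a transmembrane protein described as a non-canonical Notch ligand, at 8.60, 8.72 and 8.26 CPM in siYKT6 cells and at 7.02, 5.62 and 6.09 CPM in siNC cells (edgeR adjusted p = 2.6e-04). DLL4 and NOTCH4 were each under 0.4 CPM in all libraries and were not called.

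The genes of receptor sugars were mostly not called, with 1 of 7 higher and 0 lower by edgeR, DESeq2 and limma-voom, and 1 lower and 1 higher at an unadjusted p under 0.05. GXYLT1, which adds xylose to the O-glucose of the receptor's EGF repeats, was at 78.8, 75.9 and 72.9 CPM in siYKT6 cells and at 54.7, 51.5 and 51.0 CPM in siNC cells. Its groups were apart, with a log2 fold change of 0.54 (SE 0.0412, edgeR adjusted p = 1.9e-09). Among the 9 genes of receptor cleavage, 3 were lower and 1 was higher. The lower genes were the sheddases ADAM17 (log2 fold change -0.22) and ADAM10 (-0.18), which make the cut outside the membrane, and FURIN (-0.13), which processes the receptor precursor. ADAM10 averaged 276 ± 6.45 CPM in siYKT6 cells and 313 ± 0.249 CPM in siNC cells (SD, n = 3 each). APH1A, a γ-secretase subunit, was higher (0.17).

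Of 16 tested genes of endocytosis and ubiquitin ligases, 2 were higher and 3 lower. NEURL1B, a ubiquitin ligase that acts on ligands, was at 19.1, 17.2 and 18.6 CPM in siYKT6 cells and at 12.0, 11.3 and 10.6 CPM in siNC cells. This was the largest rise among the called pathway genes (log2 fold change 0.69, edgeR adjusted p = 2.7e-08). EPN1, an epsin of ligand endocytosis, was also higher (0.20), and DTX2 (-0.25), ITCH (-0.15) and DTX4 (-0.10), ubiquitin ligases that act on the receptor side, were lower. In the nuclear activator complex, 3 of 9 genes were higher and 1 was lower. The DNA-binding subunit RBPJ was at 66.0, 66.4 and 58.9 CPM in siYKT6 cells and at 56.5, 56.6 and 59.5 CPM in siNC cells, with siYKT6 replicate 3 among the siNC values (log2 fold change 0.15, edgeR adjusted p = 0.016). The coactivators MAML1 (0.11) and KAT2B (0.24) were higher, and the histone acetyltransferase EP300 (-0.17) was lower.

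Of 16 corepressor genes, 7 were lower and 2 higher. TLE4, a Groucho corepressor that HES proteins recruit, was at 12.9, 12.2 and 9.94 CPM in siYKT6 cells and at 16.9, 16.1 and 17.5 CPM in siNC cells (log2 fold change -0.53, edgeR adjusted p = 1.4e-05). L3MBTL3, a partner of RBPJ in repression, and CTBP2 had log2 fold changes of -0.30 and -0.21, while TLE1 and CTBP1 each had 0.17. In the rest of the HES and HEY family, 6 genes were tested, and 3 were lower and 1 higher. HES4, which averaged 4.06 CPM in siYKT6 cells and 3.84 CPM in siNC cells, and HES7 were not called. HES2 was at 3.93, 4.52 and 3.69 CPM in siYKT6 cells and at 10.9, 10.2 and 10.5 CPM in siNC cells. Its fall was the largest among the 10 Notch genes and the 67 other tested genes (log2 fold change -1.38, SE 0.0866, edgeR adjusted p = 7.9e-11). HES2 was listed for its family, and whether it responds to Notch in these cells was not tested. BHLHE41 (-0.44) and BHLHE40 (-0.23), related repressors known from the circadian clock, were lower as well. HES6, which counteracts HES1 in mouse, was higher, at 5.35, 5.81 and 7.41 CPM in siYKT6 cells and at 3.76, 4.06 and 3.95 CPM in siNC cells (log2 fold change 0.65, edgeR adjusted p = 1.2e-04).

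**Figure D4:**
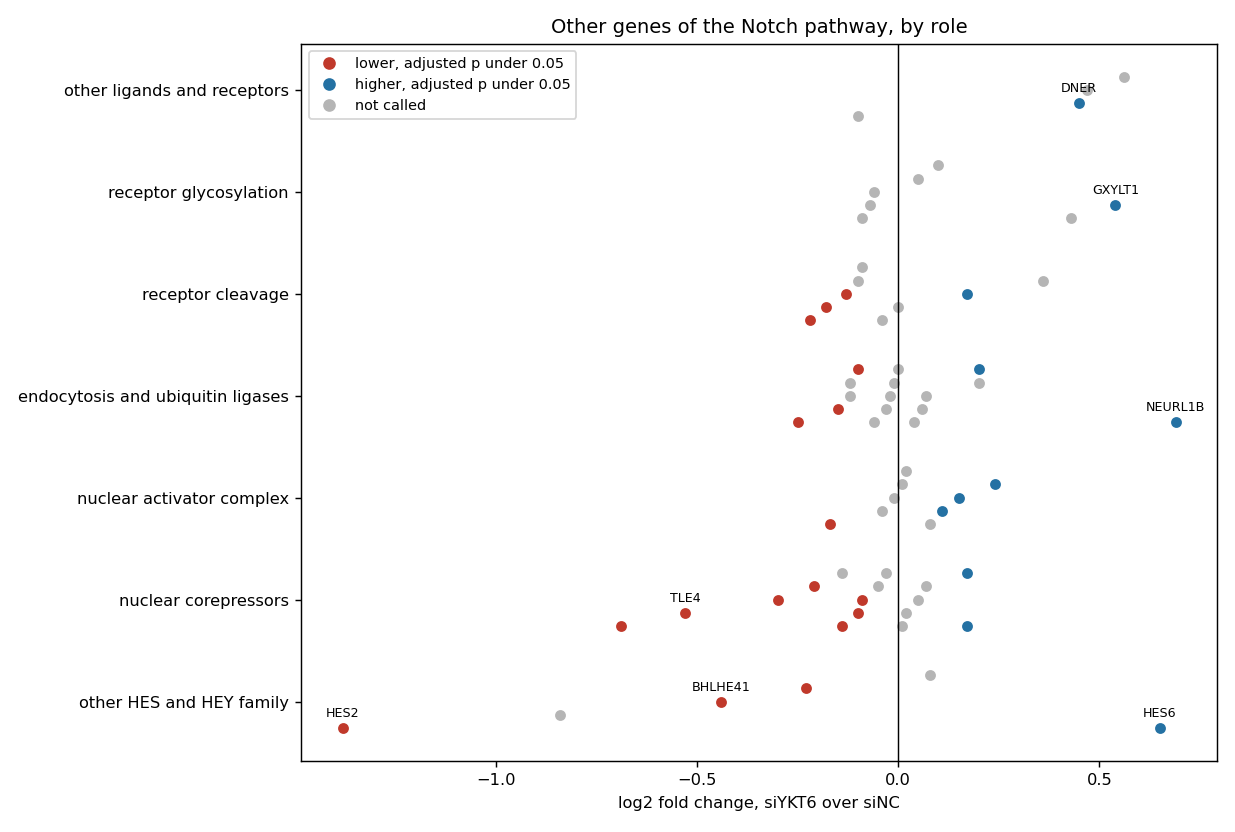
Log2 fold change of siYKT6 over siNC (horizontal axis) for the 67 other tested Notch pathway genes, grouped by role (vertical axis, with small offsets only to separate points) and colored by the edgeR call. Most points lie near 0, with HES2 (-1.38) at the low end and NEURL1B (0.69) and HES6 (0.65) at the high end.

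Some calls of small changes in these lists were lost when a library was left out, and the values in parentheses are the edgeR adjusted p without that library. The log2 fold changes kept their sign, and those of MAML1 (0.10 to 0.11) and FURIN (-0.14 to -0.12) hardly moved in these fits. RBPJ lost its call without siYKT6 replicate 1 (0.086) or 2 (0.099) or siNC replicate 1 (0.065) or 2 (0.055), and TLE1 without siYKT6 replicate 1 (0.080) or siNC replicate 1 (0.062). CTBP1 lost it without siYKT6 replicate 3 (0.061), and APH1A without siYKT6 replicate 3 (0.15) or siNC replicate 1 (0.092) or 3 (0.078). KAT2B lost it without siYKT6 replicate 1 (0.13) or 3 (0.063) or siNC replicate 1 (0.15) or 2 (0.056). MAML1 lost it without siYKT6 replicate 1 (0.085) or 2 (0.060) or siNC replicate 1 (0.064), 2 (0.054) or 3 (0.069). FURIN and DTX4 lost it without siYKT6 replicate 1 (0.074 and 0.12) or 2 (0.11 and 0.15) and without siNC replicate 1 (0.052 and 0.14), 2 (0.093 and 0.051) or 3 (0.062 and 0.12). With every library kept, DTX4 also lost its call with DESeq2 size factors (0.052), upper quartile scaling (0.11), no filter on low counts (0.18) and DESeq2 (0.057), and FURIN with upper quartile scaling (0.058), no filter (0.11) and DESeq2 (0.051). Without siNC replicate 1, 6 pathway genes were called higher in place of 11.

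A property of the transcripts that moves with the fall in siYKT6 cells was looked up for the Notch genes. The 7-base word CTCTACA in 3′ UTRs was picked earlier from these same libraries because genes that hold it tended to be lower, so its counts are a description. By GENCODE 44, 35.0% of the tested genes whose 3′ UTR holds the word were lower, against 19.0% of those with an annotated 3′ UTR without it. Of the tested genes with an annotated 3′ UTR, 1692 hold the word and 11551 do not. Most genes thus lack the word, and its absence from 10 genes says little. All 10 Notch genes have an annotated 3′ UTR, and 0 of them hold the word. HES2 holds it. Exons of JAG1 overlap a gene on the opposite strand, RP11-103J8.1, which averaged 1.14 CPM in siYKT6 cells and 2.07 CPM in siNC cells. Exons of JAG2 overlap RP11-44N21.4 on the same strand, which averaged 5.66 CPM in siYKT6 cells and 6.60 CPM in siNC cells. Reads in the shared exons cannot be assigned with certainty, and exons of the other 8 genes overlap no other gene of the table.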

How the data were processed

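Stranded mRNA libraries of 3 siYKT6 and 3 siNC samples were sequenced. Per the submitters' processing notes and the methods, the authors trimmed reads (fastp 0.23.0), mapped them (GRCh38) and ran featureCounts (Subread 1.5.1) over exons. The deposited table holds raw counts per gene and, in another column, exon lengths in bases. The aligner, the strand setting and the counting of both mates of a pair were not given in the sources used here. Of counts from 1 to 20, 68.8% to 70.0% per library were even. The chi-square per gene averaged 3.63 to 5.99 within groups and 32.8 to 40.3 between them.

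siYKT6 was compared with siNC in edgeR 4.0.16 (R 4.3.3) with filterByExpr, TMM scaling and the quasi-likelihood test, and p values were adjusted over all 21036 tested genes (threshold 0.05). The standard error is the size of the log2 fold change divided by the square root of the F statistic. Alternatives used DESeq2 1.42.0, limma 3.58.1 (voom), other scalings and filters, halved counts, a replicate block and the omission of each library. The code was tested on simulated data. In each role list, up to 3 called genes with the smallest p per direction were named. The 10 genes and the role lists were chosen with earlier results of these data known. HES5 and HELT, also on the role lists, had no row under those names in the count table and were not analysed.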

Additional observations from a re-analysis of the deposited data

How the results depend on the processing

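The falls of JAG1, JAG2, DLL1, NOTCH1, HES1, HEY1 and NRARP kept their direction and passed the threshold under all 14 alternatives run, and 7 of the 10 Notch genes were called lower under each. The weakest was HES1, at log2 fold changes of -0.26 to -0.21 and adjusted p up to 0.037 from edgeR, DESeq2 or limma-voom. The count called higher was 1 in place of 0 with upper quartile scaling and with no filter on low counts, where NOTCH2 passed (0.13 and 0.12 on the log2 scale). It ranged from 0 to 1 when a library was left out. Of the other pathway genes, 6 to 9 were called higher when a library was left out, and 13 to 15 lower. Of 24 named pathway genes, 16 were called under every alternative. NOTCH2 summed with NOTCH2NL was not called either. YKT6 stayed between -1.91 and -1.83. Across all genes, upper quartile scaling called 3475 higher and 3094 lower, and no filter called 3309 higher and 3181 lower, against 3066 higher and 3419 lower with the TMM scaling and filter of the report. The correlation of deviations was -0.00 to 0.01 between same-numbered samples and -0.01 to 0.01 between differently numbered samples. No effect shared by same-numbered samples was visible, which cannot show whether they were handled together. The replicate block called 7 of the 10 genes lower and 0 higher, with 3312 genes lower and 2958 higher over all, and of the named pathway genes DTX4 alone was not called under it (adjusted p = 0.065 from edgeR). Low counts limit NRARP and HEY1, whose intervals are the widest among the 7 called genes of the 10. Replicates per group number 3, so single-value permutation tests cannot go below 0.1.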
